A study of Homo sapiens with 8 samples.

Results

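The regions of active chromatin around 6 genes were followed in 4 medulloblastoma (MB) cell lines. The genes were *GFI1*, *GFI1B* and *PRDM6*, the oncogenes described in Group 3 and Group 4 MB as activated by enhancer hijacking, together with *EVI5*, *DDX31* and *SNCAIP*, the genes at which the rearrangements of those loci have been described. A region was counted for a gene when it overlapped the gene body or lay within 100 kb of the gene's start site in GRCh38. The rule took 6 of 19962 protein-coding genes and 49 of 88550 regions. These were 15 of 26072 regions in MB002, 16 of 26317 in D425, 10 of 15286 in HDMB03 and 8 of 20875 in UW228, and 3 of them lay in the windows of 2 of the genes.

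MB002, D425 and HDMB03 are patient-derived lines labelled Group 3 subtype (G3-MB), and UW228, the only line of its kind here, is labelled SHH subtype. MB002 and HDMB03 were grown in a serum-free stem cell medium with growth factors, D425 and UW228 in DMEM with serum, and no line carried a treatment. Each line gave 1 H3K27ac ChIP-seq library and 1 input library, where input is sonicated chromatin without immunoprecipitation. There were no replicates, so every difference between lines below is a description with no error, and 3 G3-MB lines against 1 SHH line could not give an exact permutation p below 0.25.

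H3K27ac is an acetylation mark of histone H3 carried by active enhancers and promoters. Enhancer hijacking is the activation of a gene by an enhancer that a deletion, inversion, duplication or translocation has brought next to it. GFI1 and GFI1B are zinc finger repressors of blood cell development that share an N-terminal SNAG domain, through which they recruit the histone demethylase LSD1 and its CoREST partners, and they bind DNA at sites with the core letters AATC. PRDM6 is a PR-domain repressor known from smooth muscle. *EVI5* encodes a Rab GTPase-activating protein involved in cell division and lies beside *GFI1*, *DDX31* encodes a DEAD-box RNA helicase of the nucleolus and lies on the same arm as *GFI1B*, and *SNCAIP* encodes synphilin, a partner of alpha-synuclein, and is the gene of the tandem duplication described together with *PRDM6* activation in Group 4 MB.

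The tables held neither RNA nor breakpoints, so hijacking itself was not measured. An enhancer that a rearrangement had moved would stand in them at its reference position, which can be far from the gene. By the study's methods peaks at promoters were set aside before the regions were made, so a promoter with no region says nothing about its activity, although 5 of the 49 regions held a transcript start.

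The reference sequence is shown for the stretches on which the results turn. The first 3 lie in regions found in all 3 G3-MB lines and not in UW228, the fourth is the middle of the UW228 region with the highest signal per base pair near *GFI1*, and the last is the *EVI5* promoter, the position with a region at or beside it in all 4 lines. Capitals mark AATC or its complement GATT. The first 4 are the plus strand of GRCh38 at chr9:132645415-132645714 (intron of *DDX31*), chr9:132935818-132936117 (intron of *TSC1*, upstream of *GFI1B*), chr5:123000512-123000811 (intron of *SNX24*, upstream of *PRDM6*) and chr1:92537457-92537756 (intron of *EVI5*, upstream of *GFI1*). The promoter is the minus strand of GRCh38.p14 at chr1:92785109-92785358, from RefSeq, whose promoter table matched 5 of the 6 genes.
DDX31 intron, G3-MB lines: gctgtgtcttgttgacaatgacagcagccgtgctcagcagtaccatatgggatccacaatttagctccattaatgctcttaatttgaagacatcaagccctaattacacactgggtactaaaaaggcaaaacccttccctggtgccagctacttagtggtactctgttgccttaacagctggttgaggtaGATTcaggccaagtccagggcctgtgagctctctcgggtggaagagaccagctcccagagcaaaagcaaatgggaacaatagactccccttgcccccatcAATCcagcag
GFI1B upstream, G3-MB lines: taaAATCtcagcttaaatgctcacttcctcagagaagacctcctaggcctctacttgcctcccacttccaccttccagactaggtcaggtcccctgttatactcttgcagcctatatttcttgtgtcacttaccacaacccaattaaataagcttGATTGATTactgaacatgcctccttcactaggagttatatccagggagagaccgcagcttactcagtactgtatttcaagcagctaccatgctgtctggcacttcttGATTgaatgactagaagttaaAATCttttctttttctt
PRDM6 upstream, G3-MB lines: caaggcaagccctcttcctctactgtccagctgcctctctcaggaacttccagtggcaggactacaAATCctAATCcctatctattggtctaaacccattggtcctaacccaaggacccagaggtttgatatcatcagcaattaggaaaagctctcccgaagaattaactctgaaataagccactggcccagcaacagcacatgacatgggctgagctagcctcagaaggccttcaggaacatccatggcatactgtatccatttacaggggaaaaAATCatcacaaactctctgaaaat
GFI1 upstream, UW228: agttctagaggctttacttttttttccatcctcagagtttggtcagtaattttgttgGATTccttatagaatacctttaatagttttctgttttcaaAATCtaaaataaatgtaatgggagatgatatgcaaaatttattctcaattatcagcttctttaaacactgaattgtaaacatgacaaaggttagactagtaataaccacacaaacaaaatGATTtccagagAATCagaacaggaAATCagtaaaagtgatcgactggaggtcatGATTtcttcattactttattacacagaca
EVI5 promoter: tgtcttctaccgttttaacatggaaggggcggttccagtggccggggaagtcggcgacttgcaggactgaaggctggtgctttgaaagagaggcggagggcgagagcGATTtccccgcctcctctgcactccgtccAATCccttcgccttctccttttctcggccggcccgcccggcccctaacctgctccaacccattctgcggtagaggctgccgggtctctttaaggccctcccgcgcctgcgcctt

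On both strands together, AATC stood 2 times in the *DDX31* stretch, 5 times in the *GFI1B* stretch, 3 times in the *PRDM6* stretch, 6 times in the UW228 stretch near *GFI1* and 2 times in the *EVI5* promoter. These letters are common: 85.1% of 34096 windows of 300 bp at the centres of regions made of 1 peak held them, and so did 64.8% of 35116 RefSeq promoters over the 250 bases before the start. TAATCC, the core of the sites of the photoreceptor factors OTX2 and CRX, contains AATC. It stood 1 time in the *PRDM6* stretch and in none of the other 4, and 19.3% of the 300 bp windows held it. TGACTCA, the AP-1 site, stood in none of the 5 stretches, against 8.79% of all the windows and 14.8% of those of UW228. A match of letters is a description of the sequence and not a bound site.

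**Figure D1:**
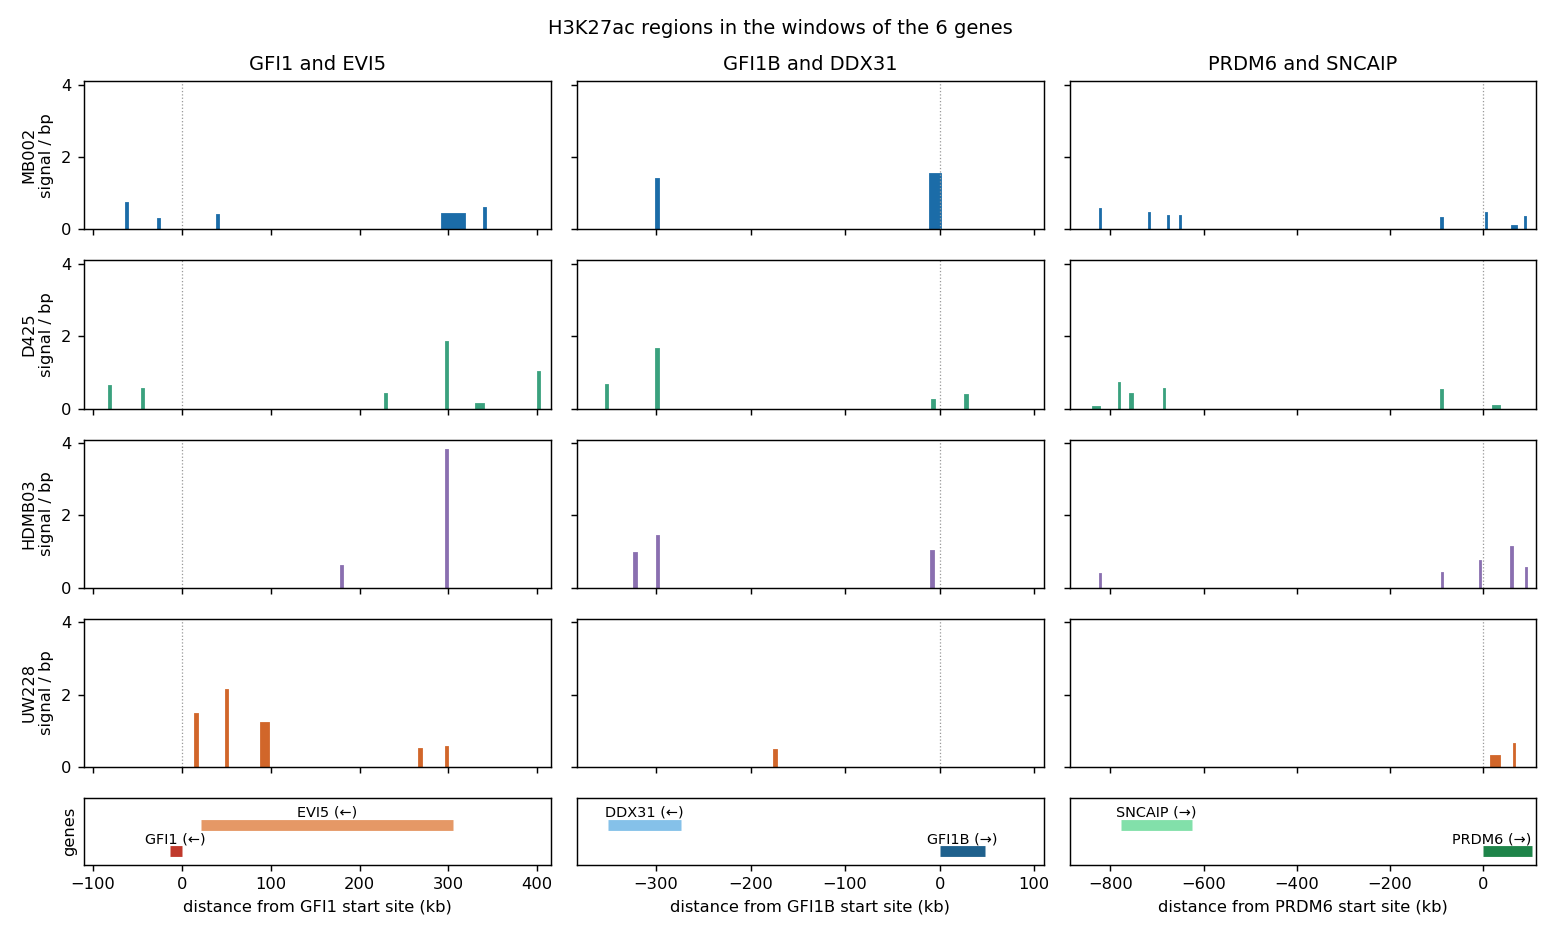
Regions of the 6 genes in the 4 lines. The x axis is the distance in kb from the start site of *GFI1*, *GFI1B* or *PRDM6* along the chromosome, bar height is signal per base pair (ChIP minus input, rpm per bp), bar width is region length (short regions are widened to be visible) and the lowest row shows the genes with their strand. UW228 had its tallest bars between *GFI1* and the middle of *EVI5*, MB002 its widest tall bar at the 5′ end of *GFI1B*, and HDMB03 the tallest bar of all, 3.82 rpm per bp at the start of *EVI5*.

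None of the 6 genes had a super-enhancer (SE) in any of the 4 lines, although most had at least 1 region. SEs are the highest ranked of the stitched regions, by the ROSE call deposited with them. In MB002 and D425 6 of the 6 genes had a region, in HDMB03 5 and in UW228 4, against 82.8%, 84.9%, 70.6% and 75.6% of all protein-coding genes. An SE was within the same reach of 5.00% of all protein-coding genes in MB002, 6.74% in D425, 4.70% in HDMB03 and 7.26% in UW228, so that 0 of 6 genes in a line does not set these genes apart. Of the 49 regions, 30 consisted of 1 peak, 26 were longer than 1 kb and 2 stood in the top 10% of the ranks of their line. These 2 were the MB002 regions at *GFI1B* and *EVI5*.

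**Figure D2:**
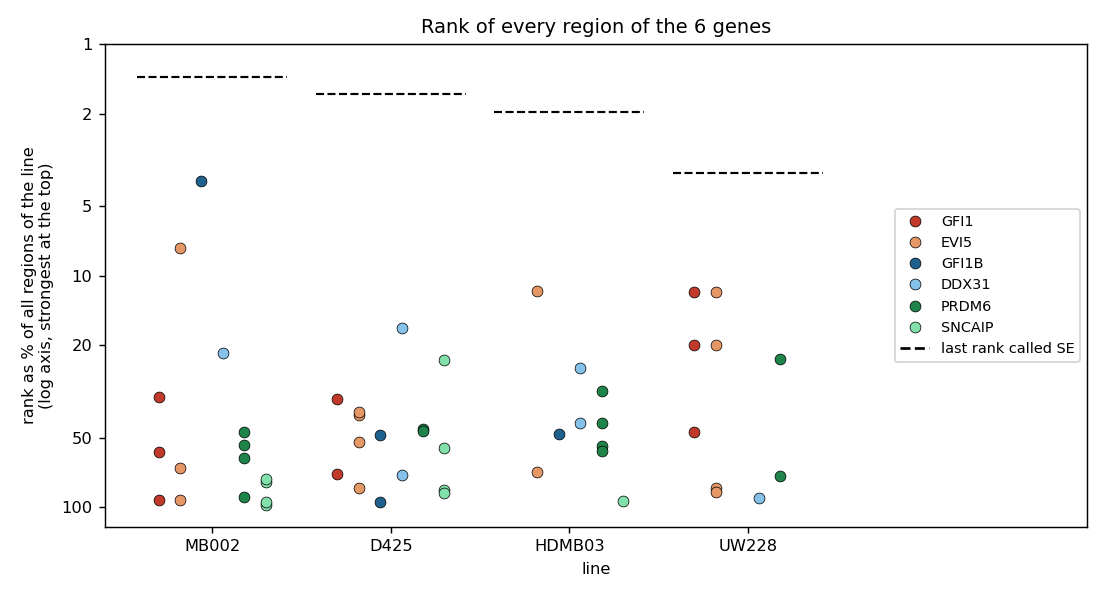
Rank of each region as a percent of all regions of its line, on a log axis with the strongest at the top. Points are regions, colours are genes, and the dashed line is the last rank called SE in that line. All points lie below the dashed lines, the closest being *GFI1B* in MB002 at 3.90%, *EVI5* in MB002 at 7.57% and the region shared by *GFI1* and *EVI5* in UW228 at 11.7%.

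*GFI1* (ENSG00000162676.13, chr1:92473043-92486925, minus strand) had its highest signal in the SHH line. The summed signal, which is ChIP minus input in rpm per bp (reads per base pair scaled to the mapped reads of the library) times the length in bp, was 19663 in UW228, 2634 in MB002 and 1785 in D425, and HDMB03 had no region. UW228 was thus 7.46 times the highest G3-MB line. The regions measured 13456 bp in UW228, 4966 bp in MB002 and 3195 bp in D425, and the mean signal per base pair kept UW228 in front with 1.46 against 0.530 and 0.559. Among the genes, the highest summed signal of the 4 lines was in UW228 for 3 of the 6 (*GFI1*, *EVI5* and *PRDM6*), against 28.0% of all protein-coding genes. Per base pair it was 1 of the 6, *GFI1*, and with gene bodies not used it was 2, *GFI1* and *PRDM6*.

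The 3 *GFI1* regions of UW228 all lay upstream of the gene, toward and inside *EVI5*. The nearest, at chr1:92502017-92503314, was intergenic, 15.1 kb from the start site, with a signal of 1898. The next, at chr1:92536027-92539186 and 49.1 kb away, was 1 peak of 3159 bp inside *EVI5* with a signal of 6706. The farthest, at chr1:92576180-92585180 and 89.3 kb away, was inside *EVI5* too and joined 3 peaks over 9000 bp with a signal of 11059. It ranked 2445 of 20875, and its signal was 45.2% of that of the lowest SE of UW228.

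None of these 3 positions had a region in a G3-MB line. MB002 had 2 regions downstream of *GFI1*, 25.3 kb and 60.2 kb from its start, and a peak of 283 bp upstream in *EVI5*. D425 had 2 downstream, 42.6 kb and 81.5 kb away, at other positions than those of MB002. The best rank was 8710 in MB002 and 8997 in D425, or 33.4% and 34.2% of the ranks, against 11.7% in UW228. Of all protein-coding genes, 16.9% had a higher summed signal than *GFI1* in UW228, 55.3% in MB002 and 62.9% in D425. None of the regions counted for *GFI1* overlapped one of another line.

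The relative input density, which is input per base pair over the median of all regions of the line, was 0.449, 2.09 and 1.48 in the 3 UW228 regions in the order given. Within 5 Mb of the *GFI1* start its median was 1.38 over 94 regions in UW228, 1.44 over 124 in MB002, 0.967 over 126 in D425 and 1.04 over 32 in HDMB03. After division of the signal by this density the best *GFI1* rank of UW228 was 3970. The summed signal was then 14932 in UW228, 2017 in D425 and 1988 in MB002. The part of input in the difference between lines was not tested.

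*EVI5* (ENSG00000067208.17, chr1:92508696-92792404, minus strand), whose start site lies 305 kb from that of *GFI1*, was the only one of the 6 genes with a position marked in all 4 lines. Its summed signal was 18329 in UW228, 11350 in MB002, 7348 in HDMB03 and 3173 in D425. UW228 was 1.61 times the highest G3-MB line. Per base pair HDMB03 led instead, with 3.06 against 1.38 in UW228, 0.418 in MB002 and 0.272 in D425. The lead of UW228 in the sum came from the 2 intronic regions already given under *GFI1*, which are the same regions counted for both genes. At the start of *EVI5* UW228 was the lowest line instead.

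There, at the start site of the MANE Select transcript (the agreed main transcript, chr1 position 92785108), MB002 had a region of 5 peaks over 26196 bp with a signal of 10856, HDMB03 a peak of 1835 bp with 7010, D425 a peak of 631 bp with 1166, and UW228 a peak of 453 bp with 253, 0.644 kb from that start. Per base pair HDMB03 led with 3.82, followed by D425 with 1.85, UW228 with 0.559 and MB002 with 0.414. HDMB03 ranked 1782 of 15286 there, MB002 1973 of 26072. This was the highest ranked region of HDMB03 at the 6 genes, at the end of *EVI5* far from *GFI1*.

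*GFI1B* (ENSG00000165702.15, chr9:132944000-132991687, plus strand) had its highest summed signal in a G3-MB line and no region in UW228. The summed signal was 17366 in MB002, 908 in HDMB03 and 844 in D425. The MB002 value came from 1 region over gene starts, and with regions within 2.5 kb of a gene start left out MB002 had no *GFI1B* region, so that HDMB03 was the highest line. MB002 had the highest signal of the 4 lines at 1 of the 6 genes, this one, against 27.1% of all protein-coding genes. The count was 0 without regions at gene starts and 2 under 4 alternatives, in which *SNCAIP* (250 kb, and per base pair), *EVI5* (gene bodies not used) or *DDX31* (division by input density) joined. A region in all 3 G3-MB lines and none in UW228 was found at 2 of the 6 genes, *GFI1B* and *SNCAIP*, against 8.96% of all protein-coding genes. This count was 0 with a window of 250 kb, in which all 6 genes had a region in every line, 3 with 50 kb, where *DDX31* joined, and 1 (*SNCAIP*) without the regions at gene starts. *EVI5*, *DDX31* and *PRDM6*, 3 of 6, had a region in all 4 lines, against 54.9%.

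The MB002 region was the strongest of all 49 by rank. It covered chr9:132933996-132945387, joined 6 peaks over 11391 bp, ranked 1018 of 26072 (3.90%) and had 53.6% of the signal of the lowest SE of MB002, at a relative input density of 1.04. It held transcript starts of *TSC1*, which encodes hamartin, a brake on mTOR signalling, and the most upstream transcript start of *GFI1B*. The start of the MANE Select transcript of *GFI1B* lies 34694 bp further downstream, at position 132978694, and no line had a region over it. HDMB03 and D425 had smaller regions inside the same stretch, of 904 bp with 1.00 rpm per bp and of 3112 bp with 0.247 rpm per bp, against 1.52 in MB002. D425 had a further peak of 202 bp in the body of *GFI1B*, 7.19 kb from the MANE Select start.

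*DDX31* (ENSG00000125485.18, chr9:132592997-132670401, minus strand), 274 kb from *GFI1B* by start sites, had its highest summed signal in the G3-MB lines. It was 4502 in D425, 3909 in HDMB03 and 3610 in MB002, against 187 in UW228, which is 0.0416 of the highest. After division of each region's signal by its relative input density the values were 5339 in MB002, 4308 in HDMB03, 2482 in D425 and 2029 in UW228, so that D425 was no longer the highest and UW228 lay much nearer. The G3-MB lines shared an intronic region, with 1.64 rpm per bp in D425, 1.44 in HDMB03 and 1.39 in MB002, best ranked at 4421 of 26317 in D425, at relative input densities of 1.80, 0.862 and 0.676 in that order of lines. HDMB03 had another intronic region of 2 peaks, at chr9:132621081-132623937, with a signal of 2775. The only region of UW228 was a peak of 406 bp in *AK8*, 99.0 kb from the *DDX31* start, just inside the 100 kb limit.

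The relative input density of that UW228 peak was 0.0922. In UW228 the median within 5 Mb of *GFI1B* was 0.587 over 88 regions, and 15.0% of all regions of the line lay below that value. In MB002, D425 and HDMB03 it was 0.916, 0.825 and 0.972. Around *GFI1B* the missing UW228 region thus went with a low input. Within 1 Mb of *DDX31* the median was 0.952 over 15 regions in UW228, against 1.04 in MB002, 0.990 in D425 and 0.964 in HDMB03. The part of input at either gene was not tested.

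**Figure D3:**
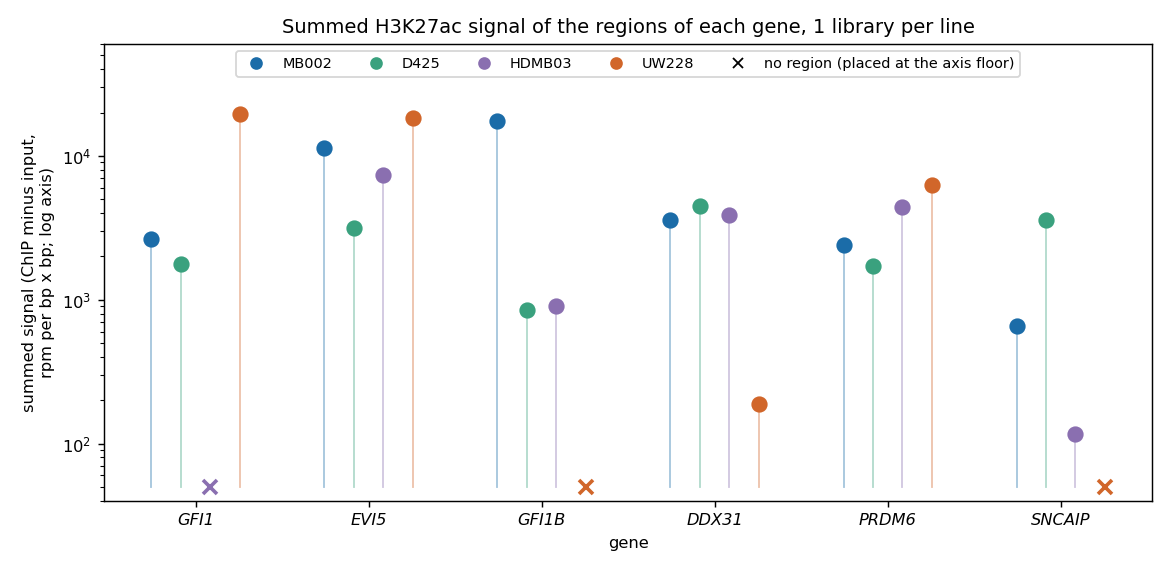
Summed signal of the regions of each gene on a log axis, 1 point per line, with a cross at the floor where a line had no region. UW228 is highest at *GFI1* (19663), *EVI5* (18329) and *PRDM6* (6251), MB002 at *GFI1B* (17366), and D425 at *DDX31* (4502) and *SNCAIP* (3611).

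*PRDM6* (ENSG00000061455.11, chr5:123089241-123194266, plus strand) had regions of modest rank in every line. The summed signal was 6251 in UW228, 4446 in HDMB03, 2414 in MB002 and 1716 in D425, so UW228 was 1.41 times the highest G3-MB line. The regions were longest in UW228 (19653 bp) and shortest in HDMB03 (6053 bp), with MB002 at 16749 bp and D425 at 15072 bp. Per base pair the lead of UW228 did not hold: HDMB03 led with 0.735, followed by UW228 with 0.318, MB002 with 0.144 and D425 with 0.114. The best ranks were 4792 in HDMB03, 4802 in UW228, 12030 in D425 and 12362 in MB002. The first 2 are 31.3% and 23.0% of the ranks of their lines.

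Inside *PRDM6*, UW228 had a stitched region of 5 peaks over 18824 bp that began 18.5 kb downstream of the start, with a signal of 5719, and D425 had one of 3 peaks at the same place with 836. Deeper in the gene, a stitched MB002 region of 12663 bp (signal 1008) overlapped a peak of HDMB03 61.6 kb from the start (1996) and another of UW228 67.6 kb from it (532). HDMB03 alone had a peak upstream of the start, 4.89 kb away, with a signal of 1130. All 3 G3-MB lines and not UW228 had a region 87.2 kb or 87.1 kb upstream, inside the neighbouring gene *SNX24*, with signals of 881 in D425, 696 in HDMB03 and 532 in MB002.

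*SNCAIP* (ENSG00000064692.20, chr5:122311354-122464219, plus strand), 778 kb from *PRDM6* by start sites, had its highest summed signal in D425. The summed signal was 3611 in D425, 653 in MB002 and 116 in HDMB03, and UW228 had no region. Per base pair D425 was the lowest of these lines, with 0.164 against 0.460 in MB002 and 0.375 in HDMB03. In D425 a region of 5 peaks at chr5:122330910-122337729, 19.6 kb inside the gene, carried 2826 and ranked 6091 of 26317. The 4 MB002 regions were single peaks of 216 bp to 546 bp, none ranked better than 19655. This depended on the window: the best MB002 rank was 6645 with the starts of all transcripts, and with 250 kb the best ranks were 1755 in D425, 2155 in MB002 and 3396 in HDMB03, UW228 had a region too, and the summed signal was higher in MB002 (19749) than in D425 (17940), UW228 (6257) and HDMB03 (5572). The 3 G3-MB lines overlapped 43.6 kb to 43.9 kb upstream, with 544 in D425, 226 in MB002 and 116 in HDMB03. The D425 region was stitched over 14867 bp, and only its end overlapped the peaks of 400 bp in MB002 and 309 bp in HDMB03. Its 544 is therefore not the signal of the shared stretch alone. Per base pair it had 0.0366, against 0.566 in MB002 and 0.375 in HDMB03.

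Across the 3 loci the 49 regions merged into 33 positions, of which 24 were found in 1 line, 3 in 2, 5 in 3 and 1 in all 4. Over all regions of the 4 lines merged in the same way, 67.8% of 54584 positions were found in 1 line. The positions in 1 line were 12 of 14 at *GFI1* and *EVI5*, 4 of 6 at *GFI1B* and *DDX31* and 8 of 13 at *PRDM6* and *SNCAIP*, and no test of their difference was made. Of the 4 positions in all G3-MB lines and not UW228, against 6.60% of all positions, 2 were at *GFI1B* and *DDX31* and 2 at *PRDM6* and *SNCAIP*.

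Gene amplification would raise input as well as ChIP, so the input was read beside every region. The relative input density of the 49 regions ran from 0 to 2.54, the highest being the *EVI5* start in D425. At *PRDM6* the median within 5 Mb was 1.25 over 85 regions in UW228 and 0.925, 0.983 and 0.964 in MB002, D425 and HDMB03. The higher summed signal of UW228 at this gene thus went with a higher input within 5 Mb. Pooled over the *PRDM6* regions themselves, relative input density was instead highest in HDMB03, 1.40 against 1.28 in UW228, 1.03 in MB002 and 0.720 in D425. After division of signal by this density the summed signal was 4837 in UW228, 3733 in HDMB03, 2770 in D425 and 2300 in MB002. The part of input in the difference between lines at *PRDM6* was not tested.

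**Figure D4:**
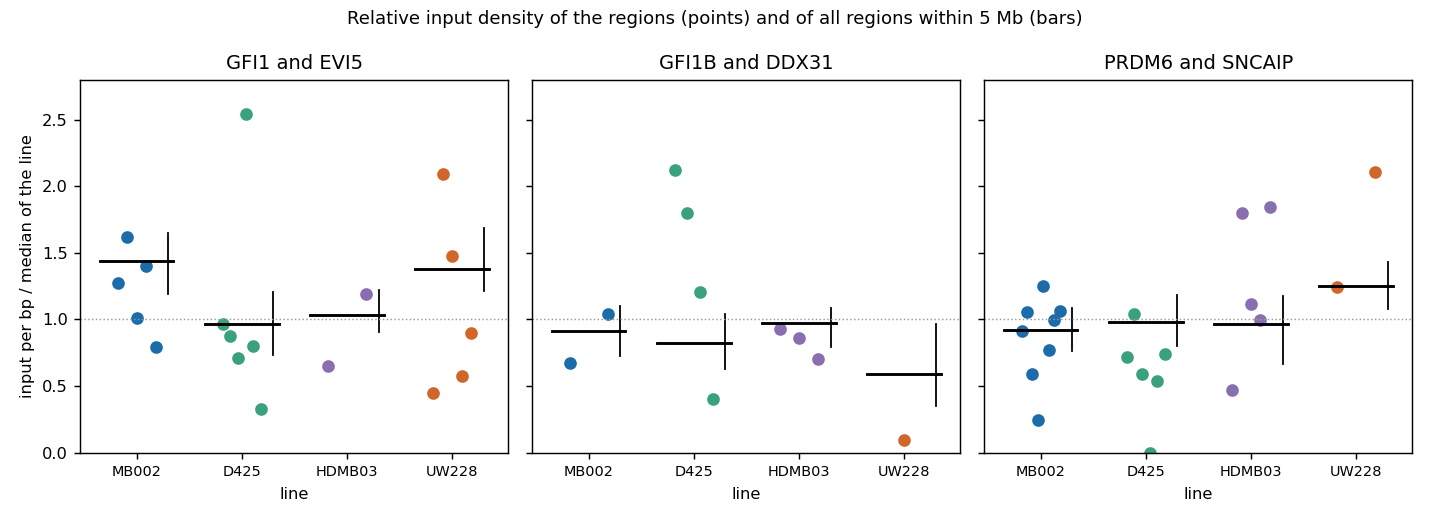
Relative input density (input per bp over the median of all regions of the line) of each region of the genes, as points, and the median of all regions within 5 Mb of the *GFI1*, *GFI1B* or *PRDM6* start site, as horizontal bars with the quartiles as thin vertical lines. The UW228 bar stands lowest at *GFI1B* (0.587), and the MB002 and UW228 bars stand highest at *GFI1* (1.44 and 1.38).

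The nearest SE to each oncogene lay at least 422 kb away. From the *GFI1* start it was 422 kb in UW228, over *DIPK1A*, 664 kb in MB002, over *TGFBR3*, 836 kb in D425, over *DR1*, and 19231 kb in HDMB03. The UW228 SE ranked 476, and it was 116 kb from the *EVI5* start. From *GFI1B* the nearest SE was 885 kb away in MB002, over *MED27*, 894 kb in D425 and 856 kb in HDMB03, both over *VAV2*, and 2799 kb in UW228. From *PRDM6* it was over *ZNF608* in UW228, MB002 and D425, 1560 kb, 1614 kb and 1616 kb away, and 12436 kb away in HDMB03.

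Neighbouring genes were counted in the same way, beside the shares of all protein-coding genes with a region already given for each line. Of the 9 protein-coding genes with a start within 500 kb of *GFI1*, the list including *EVI5*, the number with a region was 9 in UW228, 8 in MB002, 9 in D425 and 6 in HDMB03, and the median summed signal was 3467, 1754, 961 and 460. In UW228 the ribosomal protein gene *RPL5* and *DIPK1A* had an SE, the same one at rank 476. Of the 22 genes around *GFI1B*, 22 had a region in MB002, 21 in D425, 12 in HDMB03 and 11 in UW228, with none at an SE, and many of these genes shared the same 1 or 2 regions. All 5 genes around *PRDM6* had a region in MB002, D425 and UW228 and 4 in HDMB03, again with no SE. The line with the highest median of the neighbours was UW228 at *GFI1*, D425 at *GFI1B* (2038, against 1137 in MB002, 908 in HDMB03 and 93.5 in UW228) and MB002 at *PRDM6* (5751, against 3618 in UW228, 1827 in HDMB03 and 1137 in D425). By the median it was thus another line than for the oncogene itself at *GFI1B* and *PRDM6*. The total at *GFI1B* was instead highest in MB002, the line of the oncogene, with 96906.5 against 49419 in D425, 44878.5 in HDMB03 and 29288 in UW228. At *GFI1* and *PRDM6* the total was highest in the same line as the median. The median summed signal of all protein-coding genes with a region was 6166 in MB002, 5879 in D425, 5144 in HDMB03 and 6802 in UW228.

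The partners and relatives of the oncogenes were read from fixed lists, whose counts stand beside 82.8%, 84.9%, 70.6% and 75.6% of all protein-coding genes with a region and 5.00%, 6.74%, 4.70% and 7.26% with an SE in MB002, D425, HDMB03 and UW228. The CoREST list (9 genes, among them *KDM1A*, which encodes LSD1) had a region at 9 genes in MB002, D425 and UW228 and at 8 in HDMB03. Its median summed signal was 15419 in MB002, 11444 in HDMB03, 7759 in UW228 and 2526 in D425. Its only SE was at *RCOR2*, a CoREST scaffold gene, in HDMB03, at rank 260. Of the 9 SNAG zinc finger genes, to which *GFI1* and *GFI1B* belong, 9 had a region in MB002 and D425, 8 in HDMB03 and 5 in UW228, with no SE. Of the 15 PRDM genes, 13 had a region in MB002 and D425, 9 in HDMB03 and 12 in UW228, and *PRDM15* in UW228 carried the only SE, at rank 625.

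The identity of the lines was checked against markers. The Group 3 and photoreceptor list had an SE at 3 of 5 genes in MB002, 2 in D425, 2 in HDMB03 and 1 in UW228. *OTX2*, its leading factor, ranked 3 in MB002, 3 in D425 and 5 in HDMB03 and had no region in UW228. *CRX* ranked 84 in MB002 and 89 in D425, and without an SE 1425 in HDMB03 and 2446 in UW228. *NEUROD1*, a neuronal differentiation factor, ranked 253 in MB002, 48 in HDMB03 and 498 in UW228, and 502 without an SE in D425. The SHH list was not highest in UW228. UW228, MB002 and D425 had no SE among its 5 genes, while HDMB03 had SEs counted for *GLI1* (rank 203) and *PTCH1* (rank 61). Such an SE lay over the gene or within 100 kb of its start, and whether it belongs to a neighbouring gene was not tested. The total signal of the SHH list was lowest in UW228, 6960 against 50650 in D425, 52681 in MB002 and 124805 in HDMB03. Its median was 1795 in UW228, 92.9 in D425, 13177 in MB002 and 16885 in HDMB03. Of the 5 fibroblast genes, *COL1A2*, *COL3A1* and *PRRX1* had an SE in UW228 and none in the other lines. Of the 6 blood genes, whose lineage uses *GFI1* and *GFI1B*, 5 had a region in UW228, 5 in MB002, 6 in D425 and 3 in HDMB03. Only *PTPRC*, which encodes CD45, had an SE, in UW228 (rank 142). The total signal of the list was highest in UW228, 293124 against 61168 in D425, 35028 in MB002 and 9633 in HDMB03, and 209731 of it was at *RUNX1*, spread over 29 regions. The median over its genes was instead 8065 in D425, 6165 in MB002, 3284 in UW228 and 623 in HDMB03. The 5 smooth muscle genes, whose lineage uses *PRDM6*, had no SE in any line. Their total signal was 41548.5 in UW228, with 36328 of it at 1 gene, 31173 in D425, 30130 in MB002 and 14957 in HDMB03. Their median was highest in D425, 5911 against 2403 in MB002, 1236.5 in UW228 and 895 in HDMB03. None of this was tested against the levels at the 6 genes.

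The genes on other chromosomes with the most similar levels over the 4 lines were found by the mean absolute difference of log2(summed signal + 100). For *GFI1* they were *RDX* (0.19), which encodes the membrane linker radixin, and *TMEM87A* and *GANC* (both 0.20), which shared the same regions. The signal of *RDX* was 27133 in UW228, 2350 in MB002 and 1603 in D425, with none in HDMB03. For *GFI1B* they were the proto-oncogene *MYCN* (0.16), the ephrin receptor gene *EPHA10* (0.20) and *CBY2* (0.26). *MYCN* had 18936 in MB002, 1015 in D425 and 736 in HDMB03, with no region in UW228. For *PRDM6* they were *CLEC9A* (0.26), *ESYT3* (0.27) and *ADAMTS17* (0.27). These are likenesses over 4 values each, picked from all protein-coding genes for being closest.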

How the data were processed

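Each of MB002, D425, HDMB03 and UW228 gave 1 ChIP-seq library for H3K27ac and 1 input library. The authors aligned reads to GRCh38 (Bowtie2 2.3.0 and SAMtools 1.9 in the submitters' processing notes), called peaks over input with MACS2 2.2.6, set promoter flanks aside and stitched and ranked peaks with ROSE, with 12 kb stitching per the file headers (the study's methods state a slightly longer distance). Even so, 5 of the 49 regions held a transcript start of a protein-coding gene. The deposited ChIP and input values are signal (rpm per bp, that is reads per base pair scaled to the mapped reads of the library, times region length), not background-subtracted. The deposited rank is a score with 1 the highest, and further deposited columns (other) give the SE call and the number and length of stitched peaks. The UW228 table was created in 2021 and the others in 2020 per the file headers, so that date of table creation and subtype cannot be told apart. Sequencing depth is unknown, so no interval was given.

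Signal was taken as ChIP minus input, floored at 0, and the ranks it gave matched the deposited ones in 4 of 4 lines. Genes and start sites (gene 5′ ends) came from GENCODE 44, for protein-coding genes. The gene assignment was tested on simulated data (200 of 200 genes recovered). Python 3.11.15, numpy 2.4.6, pandas 2.3.3 and matplotlib 3.10.9 were used. The 6 genes and the lists were chosen with earlier results of these data known. Named genes were the 6, the genes of the lists and of the 500 kb neighbourhoods with an SE in at least 1 line, and the 3 genes on other chromosomes most like each oncogene over the 4 lines, each oncogene having a region in at least 2 lines. *RUNX1*, *TSC1*, *AK8*, *SNX24*, *KDM1A* and the genes under the nearest SEs were named for position or role after the values were seen. Alternatives changed the window, gene body, start sites, promoter regions, input handling, length, SE cutoff and overlap. The start of the MANE Select transcript was added after the data were seen.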

Additional observations from a re-analysis of the deposited data

How the results depend on the processing

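No paired analysis was possible because each line had 1 library of each kind, so no replicate could be paired or left out, and no test was made. Of 131 counts and positions recomputed under the alternatives, 117 stayed within 1.5 times the value given and 14 moved. Not all of them could move. An SE count of 0 cannot rise when only the 200 highest ranked regions are taken, which is stricter than the call in every line. With a window of 250 kb, 1 of the 6 genes had an SE in UW228 (*EVI5*, rank 476), because the window then reached it. After division of each region's signal by its relative input density, with the cutoff recomputed, 1 had an SE in MB002 (*GFI1B*, rank 958). With regions ranked by mean signal per base pair, 1 had an SE in HDMB03 (*EVI5*, rank 159) and 2 in UW228 (*GFI1* and *EVI5*, the same region, rank 339), and UW228 stood at position 2 instead of 1 at *PRDM6*. UW228 kept position 1 at *GFI1* under each alternative run. At *GFI1B* it kept position 4. UW228 had no region there under any alternative but 250 kb, and without a region it was placed last. With 250 kb the summed signal was 5048 in UW228, 5154 in D425, 6366 in HDMB03 and 18345 in MB002. Without regions within 2.5 kb of a gene start MB002 had no region at *GFI1B* either. The number of genes highest in UW228 was 1 instead of 3 by mean signal per base pair. The number highest in MB002 was 2 instead of 1 with 250 kb, with gene bodies not used, after division by input density and per base pair, and 0 without regions at gene starts. The number with a region in all G3-MB lines and not UW228 was 0 instead of 2 with 250 kb and 1 without regions at gene starts, and the number with a region in all 4 lines was 6 instead of 3 with 250 kb. Of 187 best ranks, 28 moved by over 1.5 times, and 12 of these were among the 21 recomputed as mean signal per base pair. Without the regions at gene starts the best *EVI5* rank of MB002 was 17667. Gene starts meant gene 5′ ends here, so of the regions at the MANE Select start of *EVI5* only the MB002 one was left out. HDMB03 kept its best *EVI5* rank of 1782. The best *EVI5* rank of UW228 was 17203 when gene bodies were not used. With overlap of at least 50% of the shorter region the positions numbered 34, of which 3 were in all G3-MB lines and not UW228. With unknown depth and 1 library per line, a missing region cannot be told from one below the calling threshold.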
